A study of Mus musculus with 4 samples.

Results

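The genes described here are 10 listed together as quiescence factors, after the resting state of lymphocytes. They are the Krüppel-like factors Klf2, Klf3, Klf4, Klf6 and Klf13, the forkhead factors Foxo1, Foxo3 and Foxp1, and the antiproliferative genes Btg1 and Btg2. Whether each of them holds lymphocytes in that state was not tested. They were read through all probe sets that the platform annotation pairs with 1 of these symbols and no other, which gave 38 of the 45101 probe sets of the array. Expression was read in 4 populations of B cells from adult wild-type C57BL6/J mice, each pooled from 3 to 5 animals and hybridised to 1 single-colour Affymetrix array. The sort gate was B220+PNA+Fas+ for germinal centre (GC) B cells and B220+PNA-Fas- for the naive ones. Peripheral lymph nodes (pLN) were taken after immunisation with TNP-KLH, a hapten-carrier antigen, emulsified in incomplete Freund's adjuvant. Untreated mice gave the Peyer's patches (PP), which are lymphoid organs in the wall of the small intestine. Each group is thus 1 array of 1 pool, the only repeats of the GC-naive comparison are the 2 tissues, and tissue and immunisation cannot be told apart.

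KLF2 is a zinc finger factor that restrains lymphocyte division and switches on homing genes such as the integrin subunit gene Itgb7 and the sphingosine phosphate receptor gene S1pr1. FOXO1 and FOXO3 act in the nucleus while PI3K-AKT signalling is low; AKT phosphorylates them and moves them to the cytoplasm, so their activity is not read from their transcripts alone. BTG1 and BTG2 bind the CCR4-NOT deadenylase and speed the decay of messenger RNA, and in resting T cells they help to keep the cell quiescent. GC B cells are among the fastest dividing cells of an adult mammal, and naive B cells are resting.

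All 10 genes had promoter entries in the RefSeq table (build GRCm38.p6), 12 promoters in all, and the 250 bases before each start were searched. Klf2 and Btg1 are shown as examples that had probe sets lower in GC cells and hold a short motif of a regulator class of interest here. Klf13 and Foxp1 met both conditions too, through CACCC boxes, and are not printed. Capitals mark the motifs. Klf2 lies at chr8:72318812-72319061 on the plus strand and Btg1 at chr10:96616751-96617000 on the plus strand.
Klf2: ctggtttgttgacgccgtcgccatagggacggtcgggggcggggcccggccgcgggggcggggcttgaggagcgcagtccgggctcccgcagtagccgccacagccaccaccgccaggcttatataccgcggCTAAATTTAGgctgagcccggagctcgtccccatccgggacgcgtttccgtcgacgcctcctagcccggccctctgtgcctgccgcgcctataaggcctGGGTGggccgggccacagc
Btg1: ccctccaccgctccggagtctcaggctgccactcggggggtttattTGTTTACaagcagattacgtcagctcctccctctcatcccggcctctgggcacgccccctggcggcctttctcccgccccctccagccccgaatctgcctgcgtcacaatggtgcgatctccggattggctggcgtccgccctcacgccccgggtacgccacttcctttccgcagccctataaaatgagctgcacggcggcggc
The first capitals of the Klf2 promoter are a MEF2 motif, with its first base at -118 from the start, and the second are a CACCC box, the element that KLF factors bind, read on the opposite strand. The capitals of the Btg1 promoter are the forkhead core TGTTTAC, with its first base at -204 from the start. Both strands were searched for each motif, CACCC boxes included, and in the printed promoters no match overlapped another. The forkhead core was in 1 of the 12 promoters, against 3.17% of all 32851 promoters, the MEF2 motif in 1, against 0.508%, and the CACCC box in 5, against 52%. These matches describe letters in this window, and the printed promoters were chosen for holding them; none is shown here to be a working site.

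The naive arrays carried a stronger 3' bias than the GC arrays, and this moved with cell type. The 3'/5' signal ratio of the Gapdh controls was 18.7 (naive pLN) and 96.4 (naive PP) against 1.48 (GC pLN) and 1.67 (GC PP), and that of the Actb controls ran from 1.52 on GC pLN to 67.2 on naive PP. Signals below are scaled to a common trimmed mean and have arbitrary units. The 9 spike-in control probe sets then had median signals of 4588 and 11565 on the naive arrays (pLN, PP) and of 3217 and 3071 on the GC arrays. The sort and the cell state were checked with Fas and Mki67: the 2 GC arrays read 4266 (pLN) and 4980 (PP) for Fas and 8548 and 10204 for the proliferation gene Mki67, and the 2 naive arrays 515 and 403 for Fas and 552 and 352 for Mki67. The part of the 3' bias in the results below was not tested; probe sets of 1 gene that disagree are therefore given one by one, and the level of one probe set is not compared with that of another.

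The members did not move as a block. A probe set was tested if it lay above the detection level of both arrays of a cell type; that level, the 90th percentile of probe sets for genes of other tissues, was 90.5 (naive pLN), 191 (GC pLN), 426 (naive PP) and 295 (GC PP). Of the 38 probe sets 24 were tested, from 9 of the 10 genes. Of these 16 were above the level on all 4 arrays and 8 on 3; of the 14 untested, 7 were above it on 1 array and 7 on none. With limma, tissue as a block and adjustment over all 15541 probe sets tested, 10 member probe sets were lower in GC cells (41.7%), 7 were higher (29.2%) and 7 were not called at an adjusted p under 0.05. Over all probe sets tested 20.9% were lower and 35.7% higher, 56.7% in either direction. The members' median log2 fold (GC minus naive) was -0.44 and that of all probe sets 0.35. These counts describe a chosen list, and a probe set that passed the filter through its brighter cell type was more likely to differ. The spread estimate had 1 residual degree of freedom and an infinite prior, so that each SE reflects the average spread at that brightness and not the probe set's own. When the arrays were scaled to the spike-ins instead, 2 member probe sets were called higher and 0 lower (limma; 5 and 0 at an unadjusted p under 0.05; 2537 and 29 of all probe sets), as set out below.

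**Figure D1:**
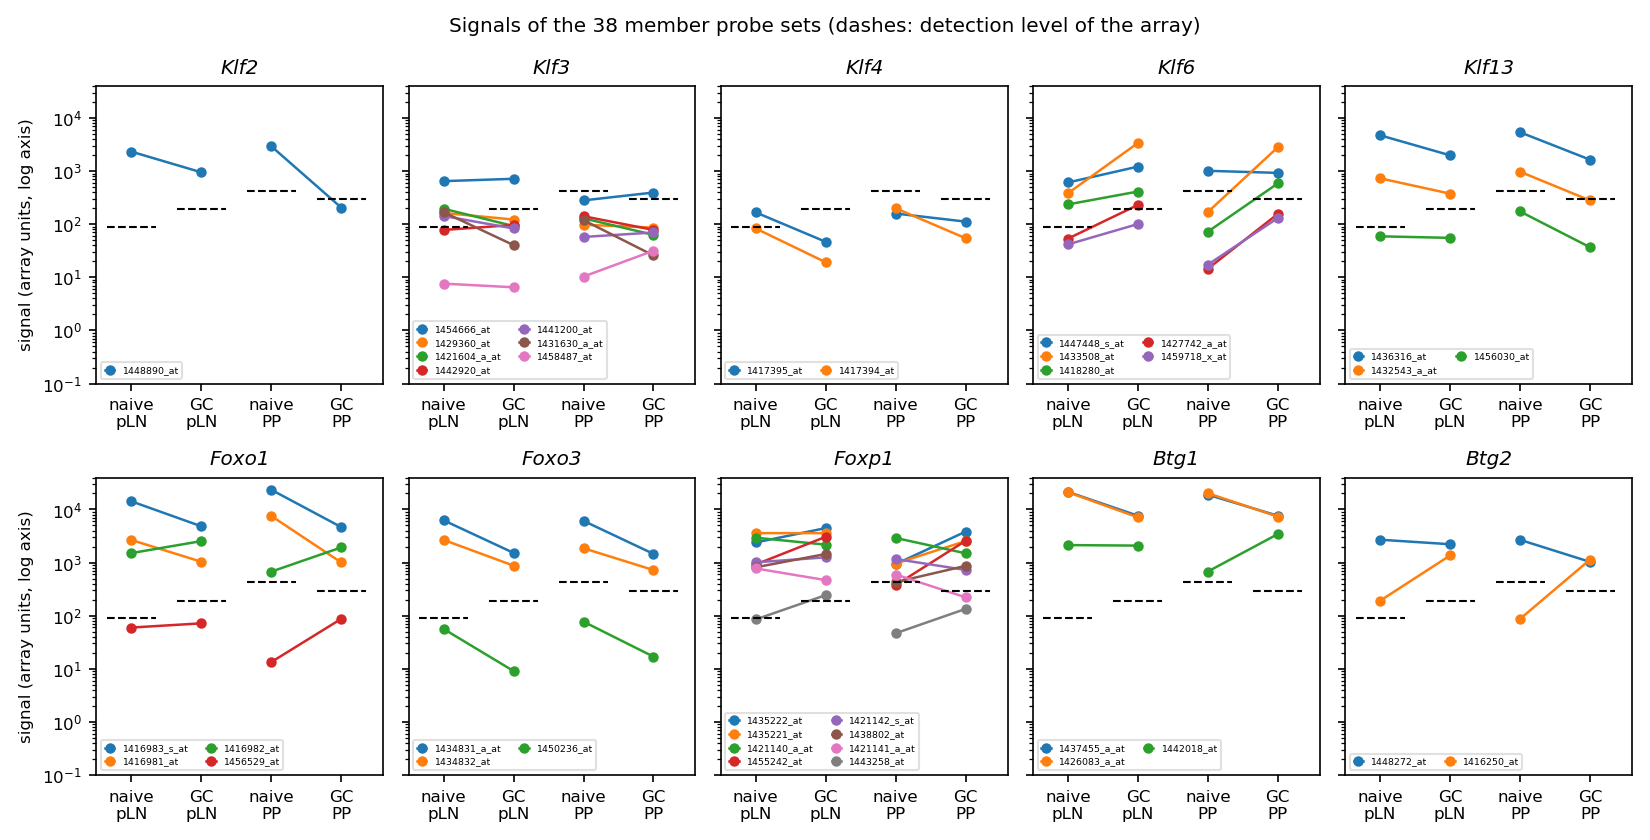
Signal (array units, log axis) of each of the 38 member probe sets on the 4 arrays, 1 panel per gene; lines join the naive and GC array of a tissue and dashes mark the detection level of each array. The Klf2, Klf13 and Foxo3 lines of the probe sets above the level run down from naive to GC in both tissues, those of Foxo1, Foxp1, Btg1 and Btg2 run both ways.

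Klf2, the factor that drives exit from lymphoid tissue, was lower in GC cells by its only probe set, 1448890_at. It read 2322 on naive pLN, 948 on GC pLN, 2929 on naive PP and 205 on GC PP. Both naive arrays were above both GC arrays, and the GC PP signal was under the detection level. The log2 fold was -2.50 ± 0.42 (limma's SE, from the average spread at that brightness; adjusted p = 3.58e-08), or at least a 4.93-fold decrease with the GC PP signal set at the level. Within pLN the decrease was 2.45-fold and within PP at least 9.91-fold; the difference between these was not tested. The SE from Klf2's own 2 tissue folds was 1.22. Without the GC PP array the log2 fold was -1.44 and was not called (limma adjusted p = 0.12, 2 arrays against 1).

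Klf13 was lower in GC cells by both tested probe sets. Probe set 1436316_at read 4720 on naive pLN, 1983 on GC pLN, 5387 on naive PP and 1639 on GC PP, so both naive arrays stood above both GC arrays. Its log2 fold was -1.47 ± 0.43 (limma adjusted p = 0.00184). Probe set 1432543_a_at read 730.0, 376, 972 and 280 in the same order and fell by 1.33 ± 0.45 on the log2 scale (limma adjusted p = 0.00722), at least 2.53-fold with GC PP at the level. The remaining probe set, 1456030_at, was below the level on all 4 arrays. With either GC array left out neither fold was called (limma adjusted p from 0.0834 to 0.247), and the folds then lay between -1.13 and -1.61.

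Klf6, a zinc finger factor that responds early to many stimuli, went the other way. Probe set 1433508_at read 382 on naive pLN, 3379 on GC pLN, 169 on naive PP and 2816 on GC PP. Both GC arrays were far above both naive arrays, and naive PP was under the level. The log2 fold was 3.50 ± 0.43 (limma adjusted p = 1.04e-14), or at least 7.65-fold. Probe set 1418280_at read 236, 412, 72.3 and 586 in the same order and was higher by 1.75 ± 0.50 (limma adjusted p = 0.00141). Its bound, taking naive PP at the detection level, was 1.55-fold, and the fold was not called when all signals under the level were set to it (0.60, limma adjusted p = 0.434), nor with quantile normalization (1.35, limma adjusted p = 0.0614). Left out in turn, the GC pLN and GC PP arrays also ended this call (limma adjusted p = 0.0933 and 0.195). Probe set 1447448_s_at, whose suffix marks probes that match more than 1 transcript, read 609.9, 1214, 1012 and 924 and was not called (0.42, limma adjusted p = 0.402). The remaining Klf6 probe sets, 1427742_a_at and 1459718_x_at, had signals from 14.5 to 231 and were not tested. Their log2 folds (pLN and PP) were 1.79 and 2.41, and 0.99 and 2.07, with all naive signals under the level.

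Klf3 and Klf4 were dim. Klf3, a repressor of the same family, had 7 probe sets, and only 1454666_at was tested. It read 646 on naive pLN, 716 on GC pLN, 281 on naive PP and 395 on GC PP. The naive PP signal was under the level, and the other 3 were above it. Its log2 fold was 0.30 ± 0.45 (limma adjusted p = 0.579) and turned negative with quantile normalization (-0.26) and cyclic loess (-0.22), and without GC pLN (-0.11) or naive PP (-0.27). The other 6 Klf3 probe sets had signals from 6.49 to 195 and were not tested. None was above the level on an array other than naive pLN. Their log2 folds (pLN and PP) were -1.67 and -1.64 for 1431630_a_at, and -0.95 and -0.86 for 1421604_a_at. They were -0.37 and -0.15 for 1429360_at, 0.26 and -0.73 for 1442920_at, -0.67 and 0.22 for 1441200_at, and -0.06 and 0.80 for 1458487_at. The 2 probe sets of Klf4, a factor that slows division of B cells, read between 19.2 and 200 and were not tested. Their log2 folds were -1.51 and -0.45 (1417395_at, pLN and PP) and -1.44 and -1.58 (1417394_at), all on signals near or under the level.

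Foxo1, which keeps the naive programme and is also needed by GC cells of the dark zone, had probe sets that pointed both ways. Probe set 1416983_s_at read 14230 on naive pLN, 4814 on GC pLN, 23459 on naive PP and 4650 on GC PP, and was lower in GC cells by a log2 fold of -1.95 ± 0.49 (limma adjusted p = 0.000285). Probe set 1416981_at read 2665, 1035, 7525 and 1004 in the same order, a log2 fold of -2.12 ± 0.42 (limma adjusted p = 3.66e-06). In both, the 2 naive arrays lay above the 2 GC arrays. The suffix of 1416983_s_at marks probes that match more than 1 transcript. Probe set 1416982_at, designed from the same accession, read 1509, 2537, 676 and 1930 and was higher in GC cells by 1.11 ± 0.42 (limma adjusted p = 0.0166). There both GC arrays lay above both naive arrays. The higher call ended without the tissue block (limma adjusted p = 0.0757), and without GC pLN, GC PP or naive PP (limma adjusted p = 0.335, 0.179 and 0.105). The lower call of 1416983_s_at ended without GC pLN or GC PP (limma adjusted p = 0.0936 and 0.102) and that of 1416981_at without GC PP (limma adjusted p = 0.0501). The remaining probe set, 1456529_at, was below the level on all arrays.

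Foxo3, the close relative of Foxo1, was lower in GC cells by both tested probe sets and by nearly the same amount in each tissue. Probe set 1434831_a_at read 6257 on naive pLN, 1523 on GC pLN, 6103 on naive PP and 1458 on GC PP. The log2 folds were -2.03 in pLN and -2.05 in PP, together -2.04 ± 0.43 (limma adjusted p = 1.28e-05). Probe set 1434832_at read 2675, 876, 1863 and 723 in the same order, a log2 fold of -1.47 ± 0.42 (limma adjusted p = 0.00145). No naive array overlapped a GC array in either probe set. The call of 1434832_at ended without GC pLN or GC PP (limma adjusted p = 0.0802 and 0.152). The last, 1450236_at, read from 9.08 to 77.2 and was below the level throughout.

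Foxp1, a forkhead repressor needed early in B cell development, had probe sets that disagreed: of 7 tested, 2 were higher in GC cells, 1 was lower and 4 were not called, with log2 folds from -1.03 to 2.21. Probe set 1455242_at read 921 on naive pLN, 3059 on GC pLN, 376 on naive PP and 2574 on GC PP, a log2 fold of 2.21 ± 0.42 (limma adjusted p = 1.04e-06), or at least 4.48-fold. Probe set 1435222_at read 2392, 4462, 935 and 3834 in the same order and was higher by 1.45 ± 0.43 (limma adjusted p = 0.00187). In both, the GC arrays were above the naive arrays. Probe set 1421141_a_at read 775, 467, 596 and 221 and was called lower, at -1.03 ± 0.45 (limma adjusted p = 0.0421). That lower call was lost when any 1 array was left out (log2 folds from -1.54 to -0.52). It was also lost with signals under the level set to it (limma adjusted p = 0.115), and without the block, the filter or the trend. The fold was 0.12 with spike-in scaling. The call held with quantile normalization (-1.56, limma adjusted p = 0.00558), cyclic loess (-1.56, limma adjusted p = 0.000584) and on the deposited scale (-1.16, limma adjusted p = 0.0254). The call of 1435222_at ended without GC pLN or GC PP (limma adjusted p = 0.161 and 0.12).

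The Foxp1 probe sets that were not called differed in direction as well. Probe set 1438802_at read 815, 1452, 429 and 869 (naive pLN, GC pLN, naive PP, GC PP), a log2 fold of 0.90 ± 0.43 (limma adjusted p = 0.0608). Probe set 1421140_a_at read 2937, 2177, 2913 and 1493, a log2 fold of -0.69 ± 0.42 (limma adjusted p = 0.153). Probe sets 1435221_at (3588, 3582, 961 and 2542) and 1421142_s_at (1010, 1255, 1167 and 726) changed sign between tissues and averaged 0.69 and -0.18. The suffix of 1421142_s_at likewise marks probes that match more than 1 transcript. The eighth probe set, 1443258_at, was above the level on GC pLN alone, at 244, and was not tested. Its log2 folds were 1.34 in pLN and 1.23 in PP.

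**Figure D2:**
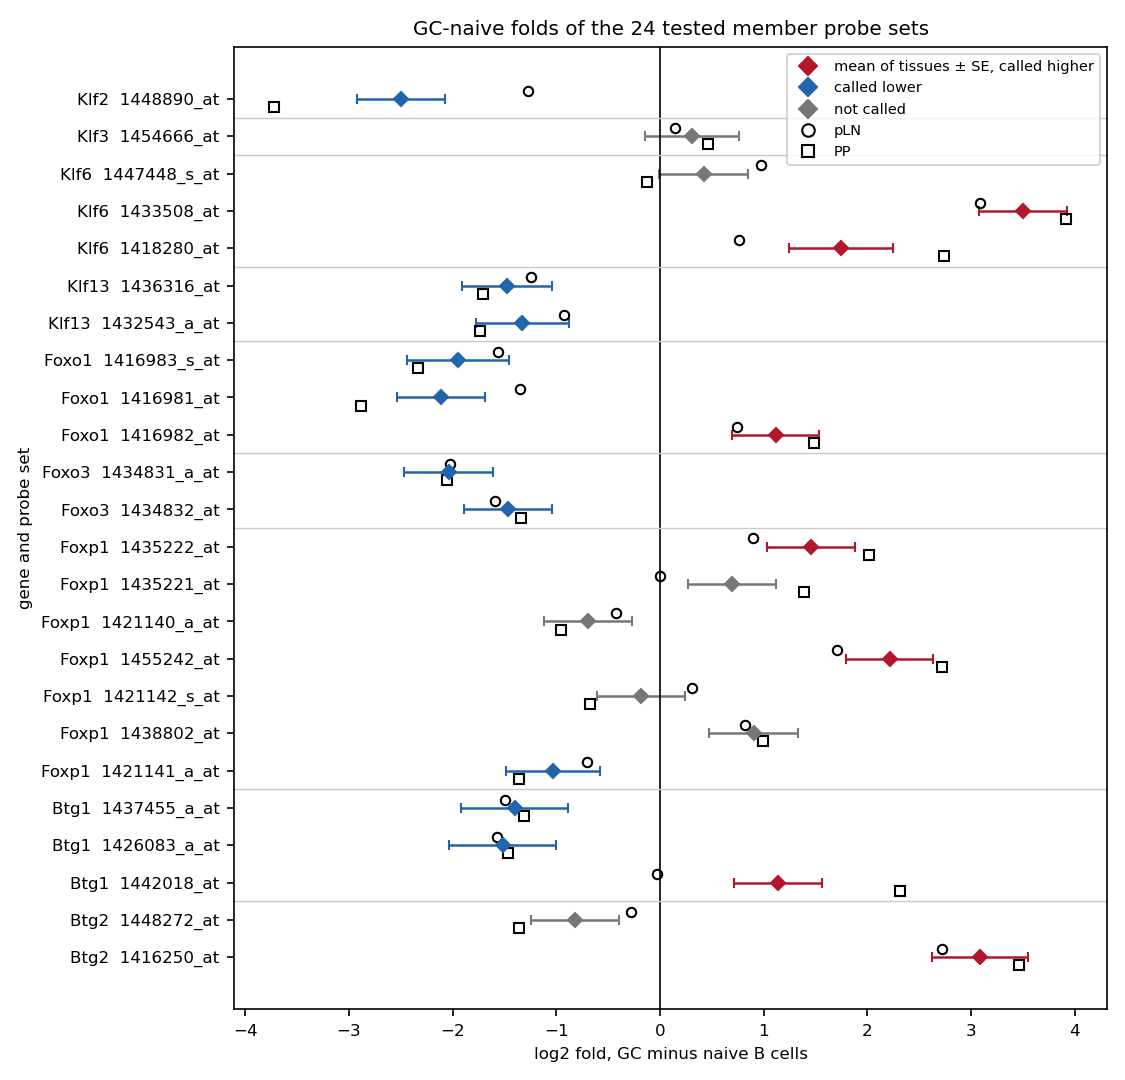
Log2 fold (GC minus naive) of the 24 tested member probe sets. Diamonds with bars are the mean of the tissues ± SE, coloured by the limma call, and open circles and squares are the fold in pLN and in PP. Klf13 and Foxo3 lie to the left of 0 in both tissues, and Foxo1, Foxp1, Btg1 and Btg2 each have probe sets on both sides.

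Btg1, the deadenylase-binding antiproliferative gene, was lower in GC cells by 2 probe sets and higher by the third. Probe set 1426083_a_at read 21166 on naive pLN, 7109 on GC pLN, 20244 on naive PP and 7320 on GC PP, a log2 fold of -1.52 ± 0.51 (limma adjusted p = 0.00733). Probe set 1437455_a_at read 21446, 7620, 18965 and 7615 in the same order, a log2 fold of -1.40 ± 0.51 (limma adjusted p = 0.0138). In both, the 2 tissues gave like values and the cell types did not overlap. Neither call held with quantile normalization (-0.59 and -0.46, limma adjusted p = 0.0555 and 0.132) or cyclic loess (-0.43 and -0.31, limma adjusted p = 0.29 and 0.462), 2 methods that adjust bright and dim probe sets separately, or without GC pLN or GC PP (limma adjusted p from 0.194 to 0.245), and that of 1437455_a_at was also lost with no filter (limma adjusted p = 0.0529). Probe set 1442018_at read 2135, 2087, 679 and 3444. Its folds were -0.033 in pLN and 2.31 in PP, and its call (1.14 ± 0.42, limma adjusted p = 0.0145) came from PP alone; it ended with quantile normalization (limma adjusted p = 0.0533), with no filter (limma adjusted p = 0.0706), without the tissue block (limma adjusted p = 0.136) and without naive PP (0.33, limma adjusted p = 0.393), GC pLN (limma adjusted p = 0.133) or GC PP (limma adjusted p = 0.452).

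Btg2, a p53 target and early response gene, was higher in GC cells by one probe set and not called by the other. Probe set 1416250_at read 191 on naive pLN, 1360 on GC pLN, 86.9 on naive PP and 1137 on GC PP, a log2 fold of 3.09 ± 0.46 (limma adjusted p = 4.13e-10), or at least 4.36-fold with naive PP at the level. Both GC arrays stood above both naive arrays. Probe set 1448272_at, annotated to the same transcript accession, read 2695, 2216, 2680 and 1031, a log2 fold of -0.82 ± 0.42 (limma adjusted p = 0.085), and was called lower on the deposited scale (-0.96, limma adjusted p = 0.0455); with spike-in scaling it stood at 0.38. The cell types did not overlap in either probe set, in opposite directions.

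A list of early response genes, set beside Klf6 and Btg2, had 7 of 14 members tested, of which 3 were higher in GC cells, 0 lower (limma; 0 at an unadjusted p under 0.05) and 4 not called (median log2 fold 0.75). By the same reading 27.2% of all genes tested were higher and 26.2% lower. The 3 higher genes were under the level on naive PP and passed the filter through the GC arrays. When only genes above the level on all arrays were kept, 3 genes of the list were tested and limma called 0 in either direction (0 at an unadjusted p under 0.05; median -0.06). In GC cells Fos, a transcription factor gene, was higher by at least 13.8-fold, the phosphatase gene Dusp1 at least 3.44-fold and the chaperone gene Hspa1b at least 1.16-fold. The part of cell handling in the Klf6 and Btg2 values was not tested.

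Taken tissue by tissue, 1 array against 1 and so without a test, 10 member probe sets were at least 2-fold lower in GC cells in pLN and 5 higher, of 31 above the level on either array. Of all probe sets 20.2% were lower and 26.6% higher there. In PP 11 were lower and 8 higher of 24, against 22.9% and 40.9% of all. The fold had the same sign in both tissues for 20 of the 24 tested probe sets (83.3%), against 87% of all 15541; the naive arrays of both tissues were the 3'-biased ones. The medians were -0.37 in pLN and -0.81 in PP for the members and 0.05 and 0.52 for all probe sets above the level.

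**Figure D3:**
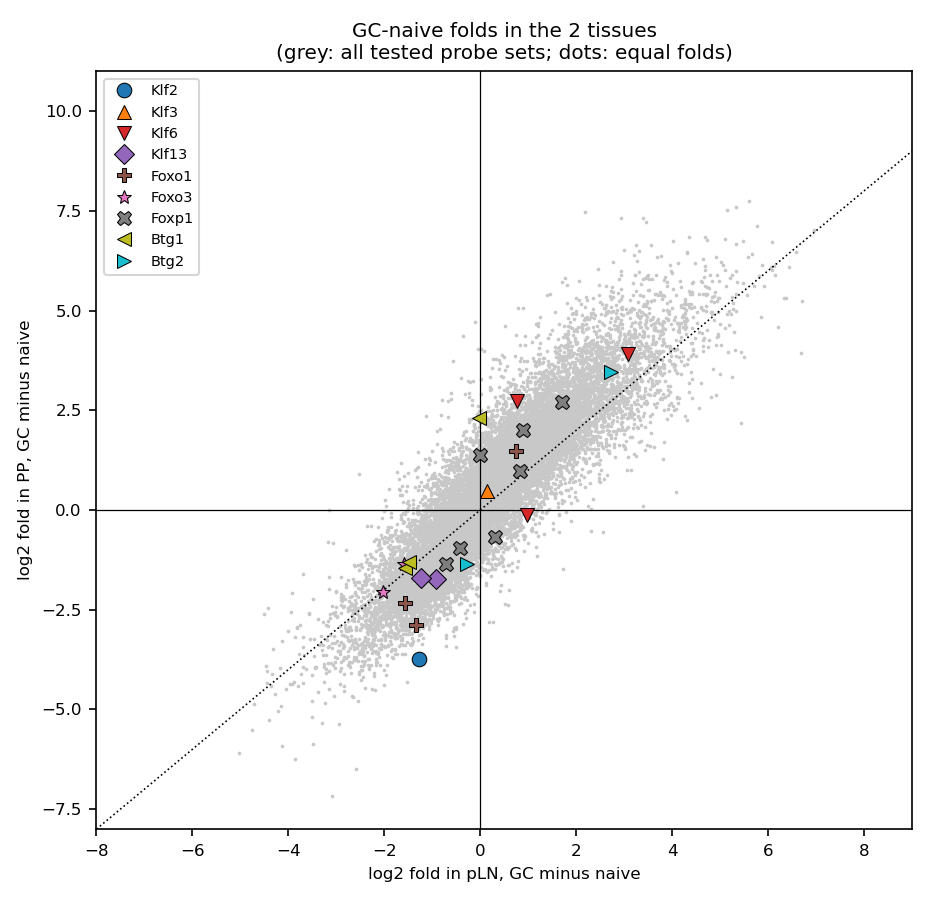
Log2 fold (GC minus naive) in pLN on the horizontal and in PP on the vertical axis; grey points are all 15541 tested probe sets, coloured symbols the 24 tested member probe sets, and the dotted line marks equal folds. Klf2 lies below the line (-1.28 in pLN, -3.72 in PP), Foxo3 near it, and 1 Btg1 probe set sits at 0 in pLN and 2.31 in PP.

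Fewer member probe sets differed between tissues on the GC arrays than on the naive arrays. In GC cells 0 member probe sets were at least 2-fold higher in PP than in pLN and 3 lower, of 26 above the level, against 2.51% and 1.42% of all probe sets. Klf2 was the furthest apart, 948 in pLN against 205 in PP, at least a 3.21-fold difference. Btg2 probe set 1448272_at was 2.15-fold lower in PP, and Foxp1 probe set 1421141_a_at at least 1.58-fold lower. In naive cells 9 were lower in PP and 1 higher, of 29, against 17.7% and 5.39% of all. The 1 that was higher was Foxo1 probe set 1416981_at, 2665 against 7525. Among those lower were Foxp1 probe set 1435221_at, 3588 against 961, and Btg1 probe set 1442018_at, 2135 against 679. Foxp1 1455242_at and Klf3 1454666_at were under the level on naive PP and lower by at least 2.16-fold and 1.52-fold. Klf3 1441200_at and Klf6 1433508_at and 1418280_at, also counted as lower, were under it too. Their naive pLN signals (143, 382 and 236) were below the naive PP level of 426, so no decrease could be bounded for them. The naive PP array had the highest 3'/5' ratios of the series, and its level of 426 placed 4 of the 24 tested probe sets below detection there that were above it on naive pLN and higher in GC cells: 2 of Klf6 and 1 each of Foxp1 and Btg2.

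Which way a member changed depended on the scaling for some probe sets and its call for most. The median log2 fold of all tested probe sets was 0.35 with the trimmed mean, 0.21 on the deposited scale, 0.12 with quantile normalization, 0.21 with cyclic loess and 1.52 with spike-in scaling. Spike-in signals were lower on the GC array than on the naive array by a log2 difference of -0.51 in pLN and -1.91 in PP. Relative to the median of all probe sets, 14 of the 24 member probe sets lay below it and 10 above it with the trimmed mean, on the deposited scale and with spike-in scaling, and 15 and 9 with quantile normalization and cyclic loess. With spike-in scaling Klf2 stood at -1.32 (limma adjusted p = 0.522), 2.84 below the median of all, and Klf6 probe set 1433508_at at 4.62 (limma adjusted p = 0.00864). Btg2 probe set 1416250_at was the other call there (4.14, limma adjusted p = 0.0134). The Foxo3 probe sets averaged -0.84 and -0.28 there and those of Klf13 -0.27 and -0.16, without a call; within PP alone Foxo3 1434832_at stood at 0.54 and the Klf13 probe sets at 0.11 and 0.19.

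**Figure D4:**
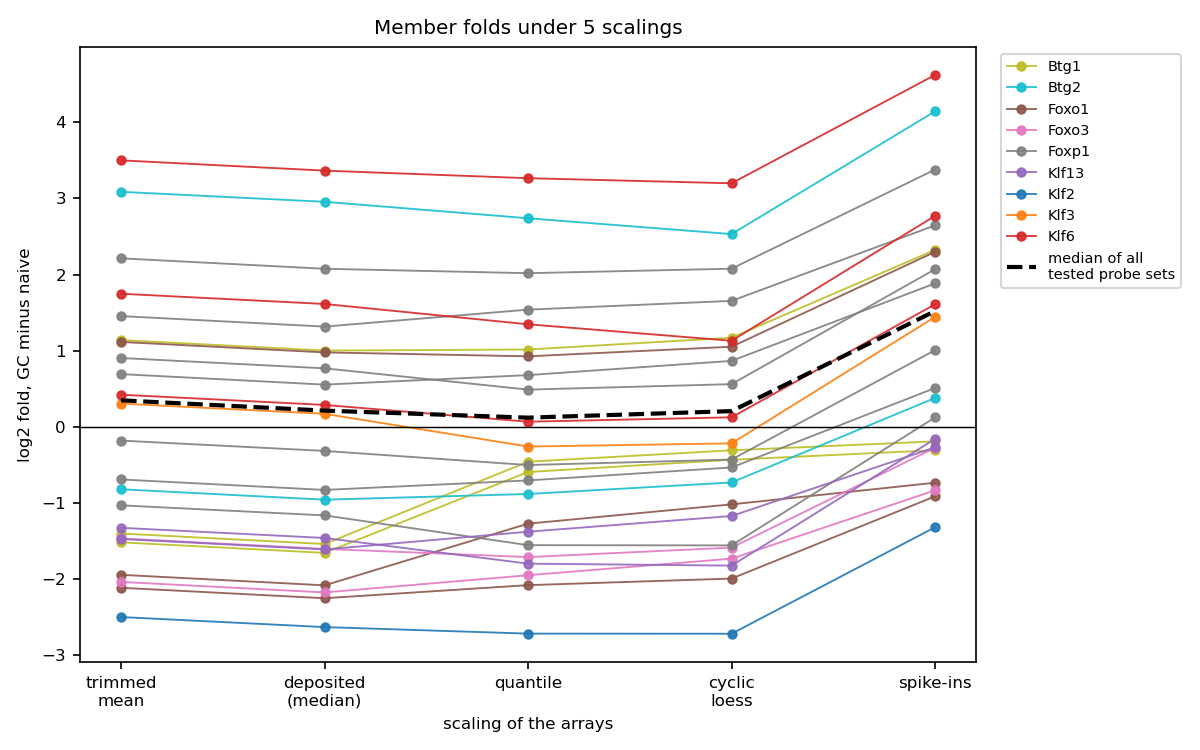
Log2 fold (GC minus naive) of the 24 tested member probe sets under 5 scalings of the arrays; each line is 1 probe set, coloured by gene, and the dashed line is the median of all tested probe sets. All lines rise at the spike-in scaling, where the median of all is 1.52, while Klf2 stays lowest and Klf6 probe set 1433508_at highest.

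The related families and pathways follow, list by list. Every list gene named below as higher by at least a given fold was under the level on naive PP. Such genes passed the filter through the GC arrays. Genes of these lists were read by their brightest probe set; over all 8138 genes so tested 27.2% were higher and 26.2% lower in GC cells, with a median log2 fold of -0.03. The members read this way gave 1 higher (Foxp1), 5 lower (Klf2, Klf13, Foxo1, Foxo3 and Btg1) and 3 not called of 9. Of 14 other KLF and SP genes measured 6 were tested, 2 higher, 2 lower and 2 not called (median 0.43). Klf9 was at least 5.89-fold lower and Klf7 3.51-fold lower, although another probe set of Klf7 was higher by 2.20. Klf16 was at least 2.71-fold and Sp4 at least 2.56-fold higher. Of 17 other forkhead genes 9 were tested, 4 higher, 4 lower and 1 not called (median 0.73, but -0.51 with no filter). Foxm1, which drives mitotic genes, was at least 3.25-fold higher, Foxn2 at least 5.42-fold and Foxk1 at least 3.08-fold higher, and Foxp4 was lower by a log2 fold of -1.98. Foxo4, a further FOXO gene, named after its values were seen, read 3202 on naive pLN, 959 on GC pLN, 4094 on naive PP and 941 on GC PP and fell by 1.91 ± 0.42 (limma adjusted p = 2.91e-05).

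Of 16 measured genes of the BTG/TOB family and its deadenylase partners, 15 were tested, 6 higher, 1 lower and 8 not called (median 0.36). The catalytic subunit genes Cnot6l and Cnot6 were higher in GC cells, by at least 8.50-fold and 6.72-fold, and the complex subunit gene Cnot3 by at least 2.61-fold. Their probe sets ranged from -0.01 to 3.75 for Cnot6l, from 0.83 to 3.98 for Cnot6 and from 0.25 to 2.03 for Cnot3. Cnot2 was 4.01-fold lower, while another of its probe sets stood at a log2 fold of 1.75. Tob1, an antiproliferative relative of the BTG genes, did not pass the test (0.08, limma adjusted p = 0.895).

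Homing and follicular genes linked to KLF2 moved mostly one way: of 8 measured, 6 were tested, 5 lower in GC cells, 0 higher (limma; 0 at an unadjusted p under 0.05) and 1 not called (median -1.88). Itgb7, the gut homing integrin subunit, read 6620 on naive pLN, 1118 on GC pLN, 12814 on naive PP and 447 on GC PP and was 13.0-fold lower. The chemokine receptor genes Ccr7 and Cxcr5 were 10.9-fold and 4.32-fold lower, and the Fc receptor gene Fcer2a 3.18-fold, with a second probe set higher by 1.35. S1pr1 was below the level on GC pLN, GC PP and naive PP, and could not be read. This list was chosen with earlier values of some of its genes known, so its direction is no separate evidence.

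Targets of FOXO factors moved both ways. Of 21 measured 15 were tested, 6 higher, 3 lower and 6 not called (median 0.79, but -0.13 without naive PP). Cited2, a transcriptional coregulator gene, was higher in GC cells by at least 6.13-fold. Lower were Pik3ip1, which restrains PI3K, at least 6.97-fold, Sesn1, a stress-induced inhibitor of mTORC1 signalling, 6.14-fold, though one of its probe sets was higher by 1.49, and Ccr7. Of 22 regulators of PI3K and AKT measured, 19 were tested, 5 higher, 5 lower and 9 not called (median -0.19, and 0.99 with spike-in scaling). Pik3r1 was at least 3.09-fold and Skp2, a ubiquitin ligase subunit, at least 3.00-fold higher, and Pik3r2 at least 3.30-fold and Pik3r5 at least 3.47-fold lower. Of 11 other quiescence genes tested, 4 were higher, 2 lower and 5 not called (median 0.45, but -0.24 without naive PP). The cell cycle inhibitor genes Cdkn2c, Cdkn1b and Rbl2 were at least 3.25-fold, 3.55-fold and 1.70-fold higher in GC cells, and Tsc22d3 was 4.06-fold lower. By contrast, 8 of 11 proliferation genes were higher, 1 (Ccnd2) lower and 2 not called (median 2.60), with Top2a at least 16.6-fold and Ccna2 at least 14.5-fold higher. Cdk1, the mitotic kinase gene, rose at least 7.46-fold. Cited2, Pik3r1, Skp2, Cdkn1b, Rbl2, Top2a, Ccna2 and Cdk1 were under the level on naive PP, and Cdkn2c on both naive arrays. All of these passed the filter through the GC arrays, where they were higher.

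The profile most like that of Klf2 over the 4 arrays, by the Euclidean distance of centred log2 signals among the brightest probe sets of 8138 genes, was that of Spns3 (distance 0.40), followed by Tcea3 (0.53) and Mapk11 (0.76). Spns3 read 1698 on naive pLN, 622 on GC pLN, 2152 on naive PP and 197 on GC PP. On GC PP Spns3 was under the level, as Klf2 was, and Tcea3 was under it on both GC arrays. With 4 arrays this likeness rests on 4 points.

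Markers of other cells were not absent, and those of gut epithelium were brightest on naive PP. All 5 measured B cell markers were above the level on 3 arrays and 4 on naive PP. Cd22 (-1.96) and Cd79a (-1.40) were called lower in GC cells and 3 were not called. A second tested probe set of Cd22 stood at 0.17. Of 6 measured GC markers 5 were called higher, among them Rgs13, Gcsam and S1pr2 at 18.4-fold, 15.8-fold and 16.5-fold or more. Bcl6 was not called by its brightest probe set (0.79), and its other tested probe set stood at 2.79. Of 7 T cell markers measured, 3 were above the level on naive pLN and 0 on the other arrays, and the list's summed signal ran from 512 to 1058. The 9 myeloid markers summed to 1392 on GC pLN and from 492 to 783 on the others; 4 were above the level in GC pLN, 2 each in GC PP and naive pLN, and 0 in naive PP. Lyz2 was called higher in GC cells, by at least 1.53-fold, and Cd68 was above the level on 3 arrays. S100a9 and S100a8 read 481 and 209 on GC pLN against 1.22 and 16.0 on GC PP, Adgre1 read 323 on naive pLN against 55.8 on GC pLN, and Cd14 read at most 5.20. The 7 endothelial and stromal markers summed to 216 to 635. The 6 gut epithelial markers summed to 97.3 and 229 on GC pLN and naive pLN, and to 874 and 2672 on GC PP and naive PP, where 1 and 3 of them were above the level. The part of such cells in the member signals was not tested, and with bulk RNA fewer cells of a type and less RNA per cell cannot be told apart.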

How the data were processed

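The deposited values are linear intensities, 1 per probe set and array, in which each array has a median of 1. The software GCOS is named per the submitters' processing notes; no source used here gives its version, summary algorithm or scaling target. Probe sets were named through the platform annotation (34958 of 45101 have 1 symbol, 932 several, and 9211 are not listed), and sequences came from RefSeq tables of build GRCm38.p6. Each array was scaled to a mean of 500, trimmed by 2% at each end, and 18.3, the median signal of 70 probe sets for 35 genes of other tissues, was added before log2. The 90th percentile of these probe sets was the detection level; 64 control probe sets were left out. Log2 folds and the 2-fold threshold are thus on the log2(signal + 18.3) scale, which understates the folds of dim probe sets. Folds written as ratios, the "at least" folds among them, are ratios of scaled signals without this addition. limma 3.58.1 in R 4.3.3 fitted cell type with tissue as a block and an intensity trend, with Benjamini-Hochberg adjustment. With 1 residual degree of freedom the prior degrees of freedom came out infinite, so p-values rest on the average disagreement between the tissues, and with 1 pool per group they do not measure the spread between animals. The number of arrays limits the precision.

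"At least" folds set each signal under the level to that level in the dimmer group. Comparisons of 1 array with 1 array have no test and use a 2-fold threshold. All 38 member probe sets are reported, with up to 4 called genes of each related list (largest fold, brightest probe set), Fas and Mki67, the 3'/5' controls and the 3 genes nearest to Klf2. The members and lists were chosen with earlier results of these data known. The fit was run on simulated data with independent noise and no 3' bias tied to cell type. That run cannot tell whether the calls here are right. Alternatives covered scaling, offset, filter, summary per gene, block, trend and each array left out.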

Additional observations from a re-analysis of the deposited data

Results flagged for a closer look

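In 4 tested member probe sets the GC-naive fold had opposite signs in the 2 tissues; the difference was not tested, since each group is 1 array. For Btg1 probe set 1442018_at the log2 fold in PP exceeded that in pLN by 2.34, and for Foxp1 probe set 1435221_at by 1.39, the pLN fold being close to 0 in both. For Klf6 probe set 1447448_s_at the PP fold minus the pLN fold was -1.10, and for Foxp1 probe set 1421142_s_at -0.98.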

How the results depend on the processing

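Values that changed sign, and counts that moved by over 1.5 times, were as follows. With spike-in scaling 2 member probe sets were called higher and 0 lower, and 2537 and 29 of all; in pLN 10 members were 2-fold higher and 6 lower, in PP 1 lower, and between naive arrays 0 were higher and 24 lower in PP. Log2 folds reversed there for Foxp1 1421140_a_at (0.51), 1421141_a_at (0.12) and 1421142_s_at (1.01) and Btg2 1448272_at (0.38), and within PP for Foxp1 1421141_a_at (0.46), Btg1 1426083_a_at (0.44) and 1437455_a_at (0.60), Klf13 1432543_a_at (0.11) and 1436316_at (0.19), Foxo3 1434832_at (0.54) and Btg2 1448272_at (0.53); the medians of the PI3K and B cell lists became 0.99 and 0.66. Klf3 1454666_at was -0.26 with quantile normalization and -0.22 with cyclic loess, which left 2 members 2-fold higher in naive PP; the deposited scale left 6 lower in GC PP. An offset of 100 left 5 lower in naive PP. With no filter 3 were higher in naive PP and 2 in GC PP, and the forkhead list's median was -0.51. With the filter on all arrays 4 members and 1392 of all probe sets were called higher, 0 were 2-fold higher in pLN and 4 in PP, 4 were lower in naive PP and 1 in GC PP, and the forkhead and early response medians were -1.53 and -0.057. With signals under the level set to it, 5 members were lower in naive PP, and the PI3K median was 0.044. Klf6 1418280_at and 1433508_at then stood 0.81 and 0.15 higher in naive PP than in naive pLN, against -1.49 and -1.09 as measured. These 2 changes of sign were fixed by the level that replaced the naive PP signals, and do not describe Klf6. By brightest probe set 1 member was higher and 5 lower (all genes 2195 and 2138), and by the mean 2 and 4 (2857 and 1906), with medians of -0.055 (forkhead) and 0.96 (PI3K). A detection list without Apoa1, Gh, Mbp and Prm1, chosen after seeing the data, gave levels of 23.6 to 117, 36 members tested, 10 higher and 11 lower, and 3 members 2-fold higher in naive PP and 3 in GC PP. With 1 array left out and no block, 3 to 9 members were higher and 1 to 11 lower, and 2467 to 7116 and 791 to 4897 of all; the lone array is assumed to vary like the others. Over these fits Klf3 1454666_at ran from -0.27 to 0.88, Foxp1 1421142_s_at from -0.57 to 0.21 and 1435221_at from -0.25 to 1.63, and the FOXO target and other quiescence medians from -0.13 to 1.22 and from -0.24 to 1.14. The causes were not tested. Each group holds 1 array, so replicate numbers pair nothing; the fits with 4 arrays paired GC and naive by tissue, and without that tissue block 5 members were called higher and 9 lower. Offsets of 1 and 100 changed 0 of the 24 member calls.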
